A study of Mus musculus with 6 samples.

Results

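The type I interferon-stimulated genes are the antiviral and regulatory genes that cells switch on when interferon alpha or beta binds its receptor. The genes described were chosen by name, 35 in all, and 34 of them were found by symbol among the 35275 genes of the deposited expression table. The remaining one, Ifit3b, is listed there under its older symbol I830012O16Rik, and its values are given apart and are in no count of levels, differences or calls. All 34 genes passed the filter on low values, a mean of at least 1 FPKM over the 6 libraries (FPKM scales the fragments of a gene by its length and by the library's total).

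RNA was sequenced from macrophages sorted out of mammary tumours of female mice aged 65 days on the FVB/NJ background. The 3 libraries labelled Atg5 KO came from mice that carried MMTV-PyMT, a tumour-driving transgene of the mammary epithelium, with Atg5flox/flox and LysMcre, a Cre expressed in myeloid cells that include neutrophils as well as macrophages. The 3 libraries labelled Atg5 WT came from mice with MMTV-PyMT and Atg5flox/flox and no Cre, so loxP-flanked Atg5 alleles and the oncogene were common to both groups. Cells were sorted as CD11b+ F4/80+ Ly6G- Ly6C-, and each library is labelled with its own mouse number. The comparison addresses how gene expression of tumour-associated macrophages differs when Atg5, a gene of autophagosome formation, is targeted in myeloid cells. Every library labelled Atg5 KO came from a mouse with the Cre, and none labelled Atg5 WT did. Effects of targeting Atg5 and of the Cre allele itself therefore cannot be told apart. Where 3 values of a group are given, they stand in the order of replicates 1, 2 and 3.

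Interferon alpha and beta act through the receptor chains IFNAR1 and IFNAR2 and the kinases TYK2 and JAK1, which activate STAT2. STAT2 enters ISGF3, a complex with IRF9 that binds the interferon-stimulated response element (ISRE) in promoters. Interferon gamma uses another receptor and acts largely through the GAS element, and many genes answer to both kinds of interferon. In tumour macrophages such genes are used as a readout of interferon exposure and of nucleic acid sensing.

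Promoters were read from RefSeq (GRCm38.p6) for 25 of the 35 named genes, Ifit3b included, as windows from 250 bases before to 50 after the gene start. Windows were not matched for Ifi204, Ifi27l2a, Mx1, Mx2, Oas2, Parp14, Parp9, Rtp4, Usp18 and Zbp1. The ISRE letters GAAA, any 2 bases and GAAA, searched on both strands with overlaps allowed, stood in a window of 15 of the 25 genes (60%), against 3.99% of all 27025 genes with a window. The GAS letters TTC, any 3 bases and GAA, which read the same on both strands, stood in 6 of the 25 (24%), against 9.55% of all genes. These are matches of letters only. The 180 bases before the gene start are shown for 7 genes, with the ISRE letters in capitals: Isg15 for its run of 3 overlapping matches, Ifit1, Ifit3 and Ifit3b for a family whose copies resemble each other, Rsad2 and Oas1a as members with opposite signs of the group difference, and Herc6 as a member whose groups did not overlap and whose stretch has no match. They lie at chr4:156200819-156200998 (minus strand), chr19:34640709-34640888 (plus), chr19:34583349-34583528 (plus), chr19:34607777-34607956 (plus), chr12:26456453-26456632 (minus), chr5:120907526-120907705 (minus) and chr6:57580812-57580991 (plus), in that order.
Isg15: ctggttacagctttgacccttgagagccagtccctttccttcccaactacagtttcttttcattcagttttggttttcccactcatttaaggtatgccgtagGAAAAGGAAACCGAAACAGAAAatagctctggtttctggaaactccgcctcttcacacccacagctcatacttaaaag
Ifit1: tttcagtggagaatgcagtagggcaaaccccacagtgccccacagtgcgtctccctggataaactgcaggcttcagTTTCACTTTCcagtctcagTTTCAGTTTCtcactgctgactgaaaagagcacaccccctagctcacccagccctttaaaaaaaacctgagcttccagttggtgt
Ifit3: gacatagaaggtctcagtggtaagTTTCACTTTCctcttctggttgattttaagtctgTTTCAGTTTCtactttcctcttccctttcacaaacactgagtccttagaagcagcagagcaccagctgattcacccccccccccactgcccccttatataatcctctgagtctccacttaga
Ifit3b: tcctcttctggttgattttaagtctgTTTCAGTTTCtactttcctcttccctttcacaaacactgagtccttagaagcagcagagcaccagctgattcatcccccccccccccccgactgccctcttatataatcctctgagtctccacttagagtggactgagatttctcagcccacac
Rsad2: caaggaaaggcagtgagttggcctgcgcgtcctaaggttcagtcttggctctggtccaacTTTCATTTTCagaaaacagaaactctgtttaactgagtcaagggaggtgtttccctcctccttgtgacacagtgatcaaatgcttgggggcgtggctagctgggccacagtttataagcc
Oas1a: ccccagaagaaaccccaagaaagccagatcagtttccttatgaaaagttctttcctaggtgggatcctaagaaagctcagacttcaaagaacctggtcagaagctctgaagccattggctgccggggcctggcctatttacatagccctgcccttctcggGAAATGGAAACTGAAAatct
Herc6: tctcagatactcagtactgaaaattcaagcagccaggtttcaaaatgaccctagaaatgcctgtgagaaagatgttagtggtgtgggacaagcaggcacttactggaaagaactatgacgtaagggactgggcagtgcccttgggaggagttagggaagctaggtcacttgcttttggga
The 3 overlapping matches of Isg15 form 1 run, and those of Oas1a end a few bases before the start. The window of Ifit3b held 2 matches, of which the stretch shows 1. Ifit2, of the same family, had 0 matches in its windows and is not shown. Reads of near copies such as Ifit3 and Ifit3b can be divided between them.

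Between 18770262 and 21173301 reads were recovered per library. A member had between 63 and 4563 reads in a library. Atg5 stood at 14.02, 16.6 and 17.4 FPKM in the libraries labelled Atg5 KO against 5.15, 5.11 and 5.28 FPKM in those labelled Atg5 WT. Counted over the whole gene, this runs opposite to the label, and it does not isolate the deleted part. Lyz2, at the Cre locus, went with the label (8.43, 11.8 and 16.1 FPKM against 4707, 2060 and 6571 FPKM). Directions below follow the labels. All 18 macrophage markers were detected in every library, and Adgre1, which encodes F4/80, stood at 195, 210 and 258 FPKM in the libraries labelled Atg5 KO against 143, 50.0 and 210 FPKM in those labelled Atg5 WT. The summed FPKM of the macrophage markers was 12108 to 15385 in the libraries labelled Atg5 KO and 4067 to 14039 in those labelled Atg5 WT. All 23 markers of mammary epithelium and tumour cells were detected too, with sums of 1023 to 4160 and 1116 to 11530. Replicate 2 labelled Atg5 WT stood apart, with the lowest macrophage sum and the highest epithelial sum. Summed markers of plasmacytoid dendritic cells, which also express Bst2, were low (32.5 to 54.9 labelled Atg5 KO, 51.9 to 57.6 labelled Atg5 WT). Those of B cells were 102 to 125 against 35.9 to 98.3, of T and NK cells 24.1 to 27.2 against 17.8 to 28.6, and of neutrophils 67.8 to 112 against 93.0 to 358, with Ly6g at 0 in 4 libraries. In bulk RNA, fewer cells of a type and less RNA per cell cannot be told apart.

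**Figure D1:**
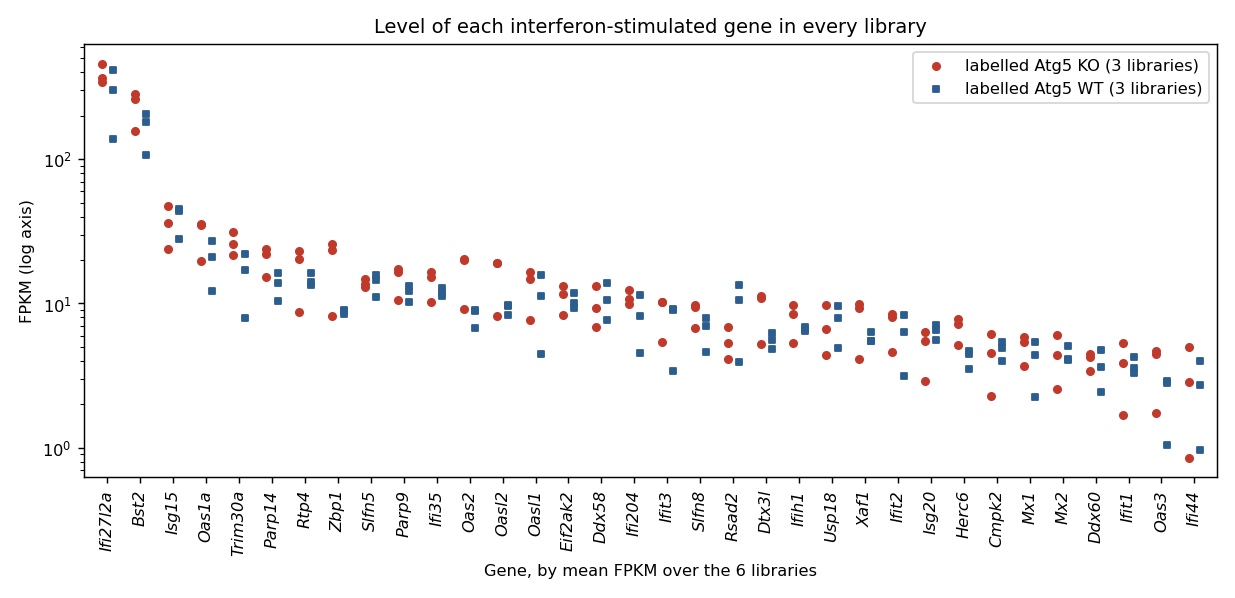
FPKM of the 34 interferon-stimulated genes on a log axis, ordered by their mean over the 6 libraries, with a red circle for each library labelled Atg5 KO and a blue square for each labelled Atg5 WT. Ifi27l2a and Bst2 sit above 100 in all libraries, and most other genes lie between 2 and 30 with points of both groups intermixed.

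Levels differed widely between members. Ifi27l2a, a small interferon-induced membrane protein gene, was the most abundant (389 ± 61.2 FPKM labelled Atg5 KO, 284 ± 137 labelled Atg5 WT; SD, n = 3 each, as for each mean below). Bst2, which encodes the virus-tethering protein tetherin, came next with 232 ± 67.0 and 165 ± 51.3 FPKM, and the ranges of these genes over the libraries met. Isg15 (35.7 ± 11.7 and 39.0 ± 9.69 FPKM) and Oas1a (29.97 ± 9.004 and 20.05 ± 7.40 FPKM) lay below the lowest Bst2 value, and their own ranges overlapped. Means over all 6 libraries of the other members lay between 21.0 FPKM for Trim30a and 2.74 FPKM for Ifi44.

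Mean log2(FPKM + 1) over the 34 members was 3.92, 3.16 and 3.82 in the libraries labelled Atg5 KO against 3.50, 3.09 and 3.54 in those labelled Atg5 WT, with overlapping groups. Of 34 members, 26 had a higher and 8 a lower mean log2(FPKM + 1) under the Atg5 KO label, where 37.2% of all 12332 genes tested were higher and 62.8% lower. Higher and lower means here and in the lists that follow are of log2 levels. The median difference in mean log2(FPKM + 1), Atg5 KO minus Atg5 WT, was 0.28 for the members and -0.09 for all genes tested, a gap of 0.37. No member passed the test (limma-trend, Benjamini-Hochberg adjusted p between 0.492 and 0.956 over the 34), and limma-voom on the recovered reads called 0 as well. Members under an unadjusted p of 0.05 were 3 higher (Herc6, Oas2 and Parp14) and 0 lower, with limma-trend, and 2 higher with limma-voom, beside 4.84% of all genes higher and 5.17% lower by limma-trend. Across all genes 0 were called higher and 1 lower (0.00811%). The 1 called gene was Lyz2, at the Cre locus (log2 difference -8.29, limma-trend adjusted p = 0.0306). The groups did not overlap for 2 members (5.88%), Herc6 and Oas2, both higher, and for 0 in the other direction, beside 9.2% and 9.41% of all genes tested.

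**Figure D2:**
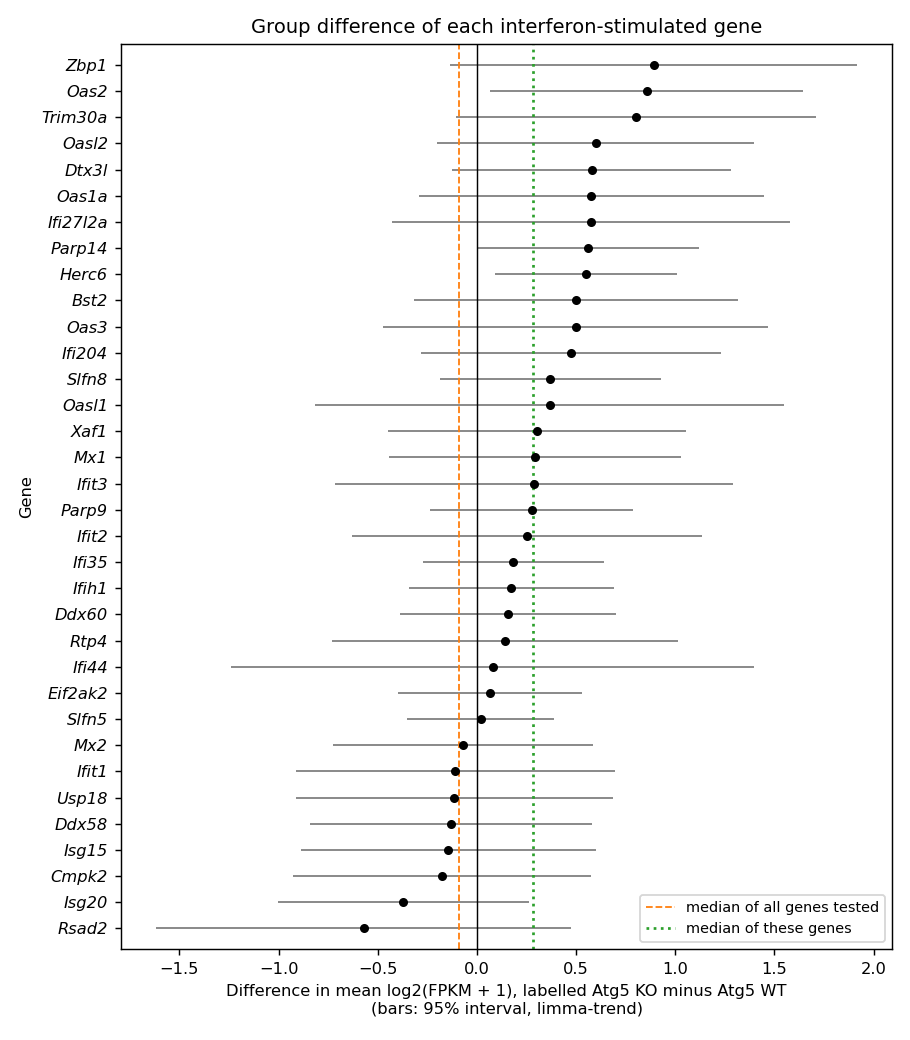
Difference in mean log2(FPKM + 1), libraries labelled Atg5 KO minus those labelled Atg5 WT, for each of the 34 genes; bars are 95% intervals of limma-trend, the dashed line is the median of all genes tested (-0.09) and the dotted line that of the members (0.28). Points run from 0.89 for Zbp1 to -0.57 for Rsad2, and the interval reaches 0 for 31 of the 34 genes.

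Replicate 2 labelled Atg5 KO held the lowest of the 3 values of its group for 33 of 34 members (97.1%), against 42.2% of all genes tested. The exception was Isg20. The same library held the lowest of all 6 values for 14 members (41.2%; all genes, 13.7%). In at least 2 of the 3 libraries labelled Atg5 KO the level exceeded every library labelled Atg5 WT for 18 members (52.9%), against 18.7% of all genes, while all 3 did so for the 2 named above. Replicate 2 labelled Atg5 WT held the lowest of its group's values for 24 members (70.6%; all genes, 30.6%). Summed over the 34 genes the FPKM was 1084, 749 and 1138 in the libraries labelled Atg5 KO against 800, 483 and 955 in those labelled Atg5 WT. The ratio of the highest to the lowest library had a median of 1.85 within Atg5 KO and 1.60 within Atg5 WT over the members, and reached 5.88 and 4.11, both for Ifi44.

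**Figure D3:**
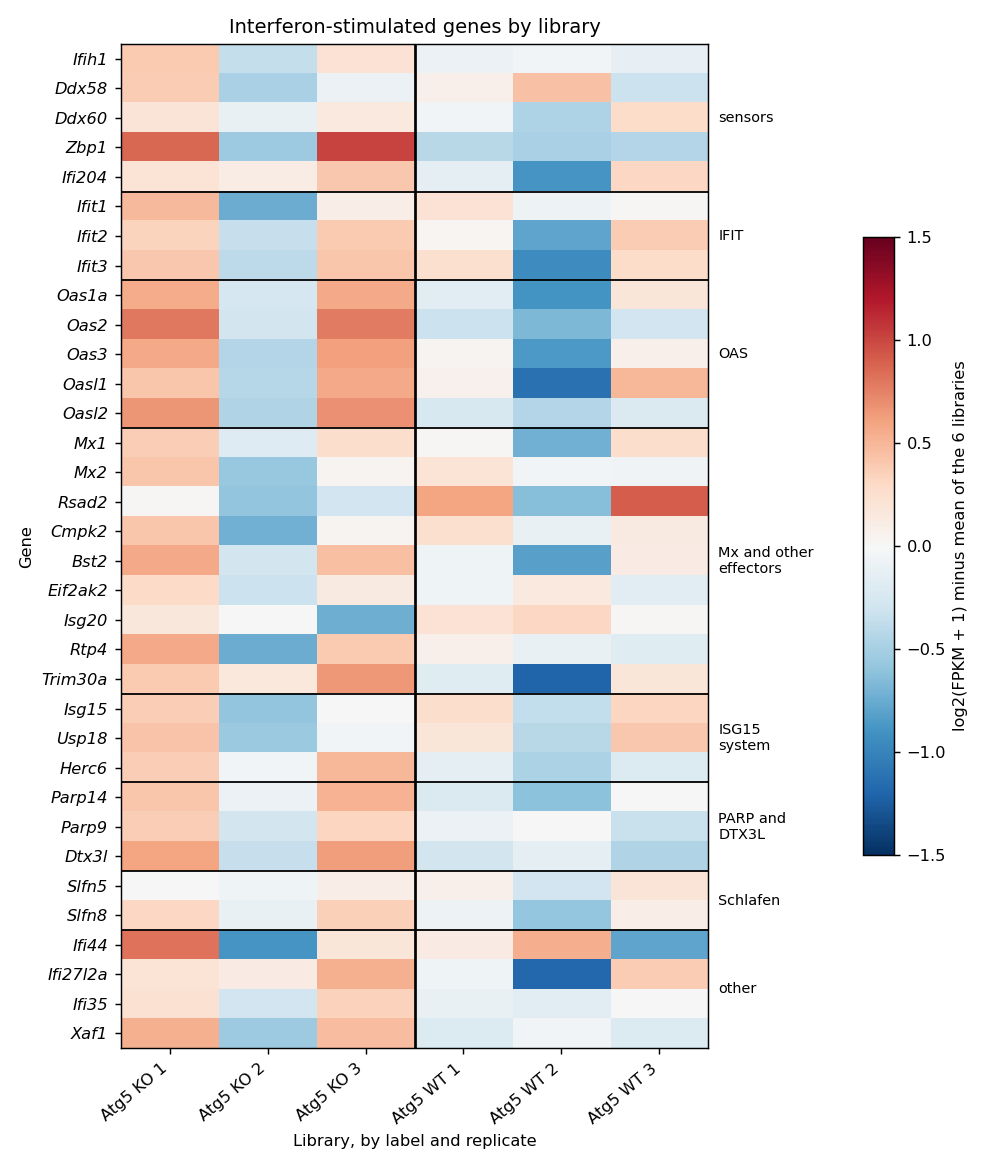
Each row is a gene and each column a library (3 labelled Atg5 KO on the left, 3 labelled Atg5 WT on the right); colour is log2(FPKM + 1) minus the gene's mean over the 6 libraries, red above and blue below, with genes grouped by role. Replicates 1 and 3 labelled Atg5 KO are red in most rows, replicate 2 of that group is pale or blue in most, and replicate 2 labelled Atg5 WT holds many of the deepest blues.

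Among the sensors, Zbp1, which encodes a receptor for Z-form nucleic acids that can trigger cell death, had the largest positive difference of the set. It stood at 23.3, 8.18 and 26.0 FPKM in the libraries labelled Atg5 KO against 9.02, 8.52 and 8.88 FPKM in those labelled Atg5 WT (chromosome 2, 173206612 to 173218923, mm10). The Atg5 WT values lay close together, replicates 1 and 3 labelled Atg5 KO lay far above them, and replicate 2 lay below all of them. On the log2 scale they differed by 0.89 (SE 0.42; adjusted p = 0.494, limma-trend), and it was 1.38 without that replicate 2 (adjusted p = 0.116, the smallest of any member in any alternative, which ran up to 0.906 for this gene). Ifi204, a DNA-binding PYHIN gene, stood at 10.7, 9.93 and 12.4 FPKM against 8.22, 4.51 and 11.54 FPKM, with overlapping groups. The RNA helicase genes had smaller differences. Ifih1, which encodes MDA5, had 9.74, 5.36 and 8.52 FPKM against 6.66, 6.91 and 6.50 FPKM. Ddx58, which encodes RIG-I, averaged 9.78 ± 3.25 against 10.7 ± 3.07 FPKM, and Ddx60, a helicase reported to assist RIG-I signalling, 4.03 ± 0.561 against 3.59 ± 1.15 FPKM.

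The IFIT genes, whose proteins bind viral RNA and block its translation, lie together on chromosome 19 (34550694 to 34650009 for the 3 genes matched by symbol). Ifit3 stood at 10.2, 5.44 and 10.3 FPKM in the libraries labelled Atg5 KO against 8.99, 3.38 and 9.22 FPKM in those labelled Atg5 WT. Ifit2 stood at 8.05, 4.65 and 8.41 against 6.30, 3.16 and 8.37 FPKM. In both genes each group had its lowest value in replicate 2 and the groups overlapped. Their differences were 0.29 (SE 0.41) and 0.25 (SE 0.36), and both turned negative without replicate 2 labelled Atg5 WT (-0.11 and -0.08). Ifit1 had 5.32, 1.69 and 3.84 FPKM against 4.26, 3.28 and 3.59 FPKM, with a difference of -0.11 (SE 0.33) that was 0.11 under quantile normalization. Ifit3b had 3.66, 0.868 and 2.29 FPKM against 2.07, 1.68 and 2.29 FPKM.

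All 5 members of the oligoadenylate synthetase family had positive differences, with a median of 0.58. These enzymes sense double-stranded RNA and activate RNase L, and the Oasl genes encode related proteins. Oas2 (chromosome 5, 120730333 to 120749853) stood at 20.3, 9.14 and 20.1 FPKM in the libraries labelled Atg5 KO against 8.86, 6.75 and 9.07 FPKM in those labelled Atg5 WT. The groups did not overlap, although replicate 2 labelled Atg5 KO lay barely above the highest Atg5 WT library. The mean was 2.01-fold higher and the log2 difference 0.86 (SE 0.32, limma-trend adjusted p = 0.492). With the macrophage marker level as a covariate the Oas2 difference was 0.69. Oasl2 stood at 18.9, 8.22 and 19.2 against 9.64, 8.28 and 9.81 FPKM, and here replicate 2 labelled Atg5 KO lay just under the Atg5 WT range. Oas1a had 35.1, 19.6 and 35.3 against 21.0, 12.2 and 26.9 FPKM, a difference of 0.58 that was 0.14 with the macrophage marker level as a covariate. Oas3 averaged 3.65 ± 1.65 against 2.26 ± 1.04 FPKM. Oasl1 averaged 12.98 ± 4.62 against 10.5 ± 5.66 FPKM and turned to -0.10 on the log2 scale without replicate 2 labelled Atg5 WT. Reads of Oas1a can be divided with its near copies such as Oas1g (8.96, 3.24 and 7.98 against 3.34, 2.33 and 5.04 FPKM).

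Other antiviral effectors went both ways, 5 with a higher and 4 with a lower mean of 9, and a median of 0.06. Trim30a, a regulator of innate signalling, stood at 25.9, 21.8 and 31.1 FPKM in the libraries labelled Atg5 KO against 17.01, 7.91 and 22.2 FPKM in those labelled Atg5 WT. Only replicate 2 labelled Atg5 KO lay below the highest Atg5 WT value, and the log2 difference was 0.80 (SE 0.37, limma-trend adjusted p = 0.494), or 0.40 without replicate 2 labelled Atg5 WT. It was 0.37 with the epithelial and 0.22 with the macrophage marker level as a covariate. Bst2 had 282, 156 and 259 against 182, 107 and 206 FPKM, with overlapping groups and a difference of 0.50, or 0.12 with the macrophage covariate. Rsad2, which encodes viperin, an enzyme that makes a chain-terminating nucleotide, had the largest negative difference. It stood at 6.83, 4.12 and 5.35 FPKM against 10.6, 3.96 and 13.5 FPKM, so that replicates 1 and 3 labelled Atg5 WT were the high libraries and replicate 2 labelled Atg5 WT the lowest of all (difference -0.57, SE 0.43, limma-trend adjusted p = 0.553). Without that last library the difference was -1.03, and with the macrophage covariate it was -1.19. Cmpk2, the neighbour of Rsad2 on chromosome 12 and a nucleotide kinase gene, had 6.19, 2.28 and 4.56 against 5.38, 4.001 and 4.91 FPKM. Isg20, an exonuclease gene, had 6.30, 5.50 and 2.91 against 6.56, 7.05 and 5.59 FPKM, the one member in which at least 2 libraries labelled Atg5 KO lay below every Atg5 WT library (all genes, 26.6%). Mx1 (5.86, 3.66 and 5.39 against 4.38, 2.23 and 5.38 FPKM), Mx2 (4.32 ± 1.74 against 4.40 ± 0.553 FPKM), Eif2ak2, which encodes the RNA-activated kinase PKR (11.04 ± 2.48 against 10.4 ± 1.31 FPKM), and the receptor transporter gene Rtp4 (17.5 ± 7.69 against 14.6 ± 1.44 FPKM) had differences smaller than their SE.

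In the ISG15 system the ligase and the modifier gave different values. ISG15 is a ubiquitin-like protein, HERC6 is its main ligase in mice, and USP18 removes it and also dampens receptor signalling. Herc6 (chromosome 6, 57580992 to 57665136) stood at 7.17, 5.12 and 7.87 FPKM in the libraries labelled Atg5 KO against 4.69, 3.52 and 4.48 FPKM in those labelled Atg5 WT. All 3 libraries labelled Atg5 KO lay above the others, the mean was 1.59-fold higher and the log2 difference 0.55 (SE 0.19), with the smallest p of the set (0.0259 unadjusted, 0.492 adjusted, limma-trend). Isg15 itself had 47.2, 23.8 and 36.3 against 43.8, 27.9 and 45.5 FPKM (difference -0.14, SE 0.30), and Usp18 had 9.71, 4.39 and 6.70 against 7.97, 4.95 and 9.54 FPKM (-0.11, SE 0.32). Both overlapped widely. Without replicate 2 labelled Atg5 KO they were 0.11 and 0.14, and Usp18 was 0.08 under quantile normalization. Uba7 and Ube2l6, the activating and conjugating enzyme genes of the same pathway, were chosen after their values were seen. They stood at 19.2, 12.55 and 20.8 against 11.5, 9.99 and 10.5 FPKM and at 31.3, 24.9 and 36.1 against 19.0, 10.7 and 23.5 FPKM, with groups that did not overlap (log2 differences 0.64 and 0.81, limma-trend adjusted p = 0.492 for each).

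The PARP and DTX3L genes lie close together on chromosome 16 and encode ADP-ribosyl transferases and a ubiquitin ligase that act in interferon and DNA damage signalling. Parp14 (35832874 to 35871544) stood at 22.1, 15.4 and 23.9 FPKM in the libraries labelled Atg5 KO against 13.9, 10.4 and 16.3 FPKM in those labelled Atg5 WT. Dtx3l stood at 10.97, 5.26 and 11.2 against 5.57, 6.21 and 4.83 FPKM, and Parp9 at 17.2, 10.6 and 16.7 against 12.3, 13.2 and 10.2 FPKM. In each gene replicates 1 and 3 labelled Atg5 KO exceeded every Atg5 WT library and replicate 2 did not. The log2 differences were 0.56 (SE 0.23), 0.58 (SE 0.29) and 0.28 (SE 0.21), with limma-trend adjusted p of 0.492, 0.505 and 0.555. With the macrophage marker level as a covariate Parp14 was at 0.31, Dtx3l at 0.69 and Parp9 at 0.40. Parp9 and Dtx3l overlap on opposite strands, and no source used here gives the strand setting of the counting, so their reads cannot be told apart where they overlap.

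Both Schlafen genes, whose family restricts translation and growth of immune cells, overlapped between groups. Slfn8 had 9.38, 6.79 and 9.77 FPKM in the libraries labelled Atg5 KO against 6.97, 4.62 and 7.996 FPKM in those labelled Atg5 WT, a difference of 0.37 with a 95% interval of -0.19 to 0.93. Slfn5 had 13.7, 13.1 and 14.8 against 14.5, 11.1 and 15.8 FPKM, a difference of 0.02 with a 95% interval of -0.35 to 0.39. The remaining members all had higher means. Ifi27l2a stood at 363, 344 and 459 against 302, 139 and 412 FPKM, a difference of 0.58 (SE 0.41) that was 0.13 without replicate 2 labelled Atg5 WT and -0.08 with the macrophage covariate. Ifi35, a signalling partner gene of Nmi, had 15.2, 10.3 and 16.6 against 11.9, 11.3 and 12.8 FPKM, and Xaf1, a gene tied to apoptosis, had 9.88, 4.14 and 9.32 against 5.49, 6.30 and 5.50 FPKM. In both, replicate 2 labelled Atg5 KO was the lowest library. Ifi44 varied most, from 0.854 to 5.02 FPKM within Atg5 KO and from 0.970 to 3.99 FPKM within Atg5 WT.

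Transcripts of the interferons were at or near the limit of detection in both groups. Of 20 type I and III interferon genes 11 were listed at 0 in all 6 libraries, and none reached the filter. Ifnb1, the interferon beta gene, had 8, 19 and 10 recovered reads in the libraries labelled Atg5 KO against 18, 1 and 22 in those labelled Atg5 WT. Ifng, made mostly by T and NK cells, had 2, 0 and 3 reads against 0, 4 and 0. None of these ligands, Ifng included, was tested for a difference, since none reached the filter.

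Receptor and kinase genes were abundant, and 6 of 9 had a higher mean and 3 a lower mean, with a median difference of 0.25. Ifnar1 stood at 47.7, 51.7 and 54.5 FPKM in the libraries labelled Atg5 KO against 48.4, 29.9 and 63.4 FPKM in those labelled Atg5 WT, and Ifnar2 at 44.6, 46.3 and 50.1 against 41.8, 27.6 and 46.6 FPKM. The groups overlapped for both chains of the type I receptor. They did not overlap for 2 of the 9 genes (all genes higher, 9.2%), Tyk2 (24.6, 22.97 and 25.8 against 18.3, 16.6 and 20.2 FPKM) and Ifngr1, a chain of the interferon gamma receptor (93.9, 99.7 and 112 against 73.0, 56.1 and 84.4 FPKM). The limma-trend adjusted p was 0.492 for Tyk2 and Ifngr1.

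The 8 interferon transcription factor genes described here all had higher means, with a median difference of 0.55, and the groups did not overlap for 4 of them (all genes higher, 9.2%). None passed the test (limma-trend, smallest adjusted p = 0.492; 3 higher at an unadjusted p under 0.05, beside 4.84% of all genes). Stat2 stood at 20.7, 11.7 and 21.6 FPKM in the libraries labelled Atg5 KO against 12.0, 10.9 and 11.9 FPKM in those labelled Atg5 WT, and Irf9 at 22.7, 15.8 and 21.4 against 16.6, 17.7 and 14.8 FPKM. In both, replicate 2 labelled Atg5 KO lay within the Atg5 WT range. Irf7, which amplifies interferon production and is itself a type I interferon target, stood at 51.5, 19.9 and 42.4 against 37.1, 28.2 and 34.3 FPKM, so that replicate 2 labelled Atg5 KO was the lowest library. Irf1 had 113, 92.7 and 113 against 75.6, 72.2 and 67.2 FPKM, and Irf2 had 32.8, 29.9 and 37.3 against 24.9, 18.5 and 24.2 FPKM, both without overlap. Irf5 and Irf8 complete the 4 (log2 differences 0.81 and 1.03). The log2 differences of Stat2, Irf9 and Irf7 were 0.55, 0.26 and 0.09.

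**Figure D4:**
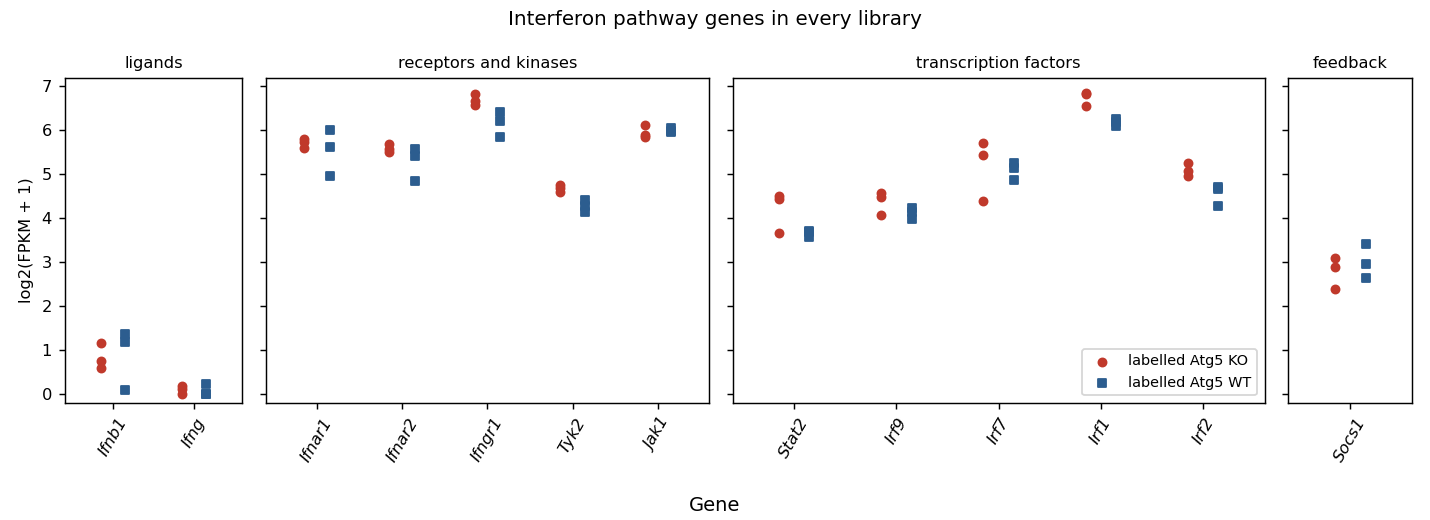
log2(FPKM + 1) of genes of the interferon pathway in every library, red circles for libraries labelled Atg5 KO and blue squares for those labelled Atg5 WT. Ifnb1 and Ifng lie near the bottom in both groups, the points of Irf1, Irf2, Tyk2 and Ifngr1 separate by label, and those of Ifnar1, Ifnar2, Irf7 and Socs1 do not.

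Genes of inhibitors of the pathway had a median of -0.21, with 3 of 7 higher, and 2 without overlap, both higher (all genes higher, 9.2%). Socs1 stood at 6.39, 7.55 and 4.20 FPKM in the libraries labelled Atg5 KO against 6.79, 5.22 and 9.56 FPKM in those labelled Atg5 WT. Ptpn6, which encodes the phosphatase SHP-1, stood at 98.9, 81.9 and 124 against 55.8, 32.1 and 73.0 FPKM without overlap, and Ptpn2 at 17.4, 19.7 and 14.6 against 24.2, 25.6 and 18.2 FPKM. For the genes of nucleic acid sensing upstream of interferon the median was 0.34, with 12 of 15 higher, and 4 without overlap, all higher (all genes higher, 9.2%). Mavs, the adaptor of RIG-I and MDA5, stood at 16.3, 14.5 and 20.4 against 10.9, 9.64 and 11.6 FPKM. Tmem173, which encodes STING, stood at 49.1, 44.0 and 64.3 against 35.5, 27.8 and 41.1 FPKM, and the kinase gene Ikbke at 9.20, 5.90 and 12.2 against 3.985, 3.24 and 5.45 FPKM. All 3 libraries labelled Atg5 KO lay above those labelled Atg5 WT for these 3 genes, and none of either list passed (limma-trend, smallest adjusted p = 0.492).

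A list of other type I interferon-stimulated genes had a median difference of 0.42 over 43 tested members, with 36 higher and 7 lower. None passed over all genes (limma-trend, smallest adjusted p = 0.492), and 7 higher and 2 lower members were under an unadjusted p of 0.05, beside 4.84% and 5.17% of all genes. The groups did not overlap for 9 higher and 2 lower members, beside 9.2% and 9.41% of all genes. The 2 lower ones, named here after their values were seen, were Ifitm1, a gene of the same family as Ifitm3, with 6.91, 14.4 and 5.58 FPKM in the libraries labelled Atg5 KO against 17.7, 29.7 and 17.2 FPKM in those labelled Atg5 WT, and the Schlafen gene Slfn4. Slfn4 had 3.53, 1.70 and 2.70 against 8.14, 4.26 and 11.3 FPKM. Samhd1, a nucleotide hydrolase that limits viral DNA synthesis, stood at 115, 84.8 and 135 FPKM in the libraries labelled Atg5 KO against 56.2, 51.1 and 65.7 FPKM in those labelled Atg5 WT. The membrane restriction factor gene Ifitm3 stood at 491, 370 and 532 against 298, 293 and 322 FPKM, and Gm4951, a GTPase gene, at 7.30, 1.84 and 8.13 against 0.813, 0.568 and 0.564 FPKM. None of these overlapped between groups. Replicate 2 labelled Atg5 KO had the lowest value of its group for 34 of the 43.

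The genes known chiefly for induction by interferon gamma had a median difference of 1.58 over 21 tested genes, beside 0.28 for the 34 members in the same fit, and all 21 had higher means. The groups did not overlap for 18 of the 21 (all genes higher, 9.2%), against 2 of the 34 members. The difference between the lists was not tested. Irf1, one of the 18, is also counted among the transcription factor genes above. Replicate 2 labelled Atg5 KO was the lowest of its group for all 21. Gbp5, a guanylate-binding protein gene, stood at 34.4, 12.4 and 43.6 FPKM in the libraries labelled Atg5 KO against 4.95, 2.66 and 5.77 FPKM in those labelled Atg5 WT, and Gbp2 at 72.7, 30.9 and 83.9 against 17.8, 14.8 and 15.7 FPKM. Cxcl10, a chemokine gene that answers to both kinds of interferon, was the member with the smallest difference (37.1, 34.3 and 36.4 against 41.6, 14.9 and 53.1 FPKM, difference 0.15). None passed over all genes (limma-trend, smallest adjusted p = 0.492).

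**Figure D5:**
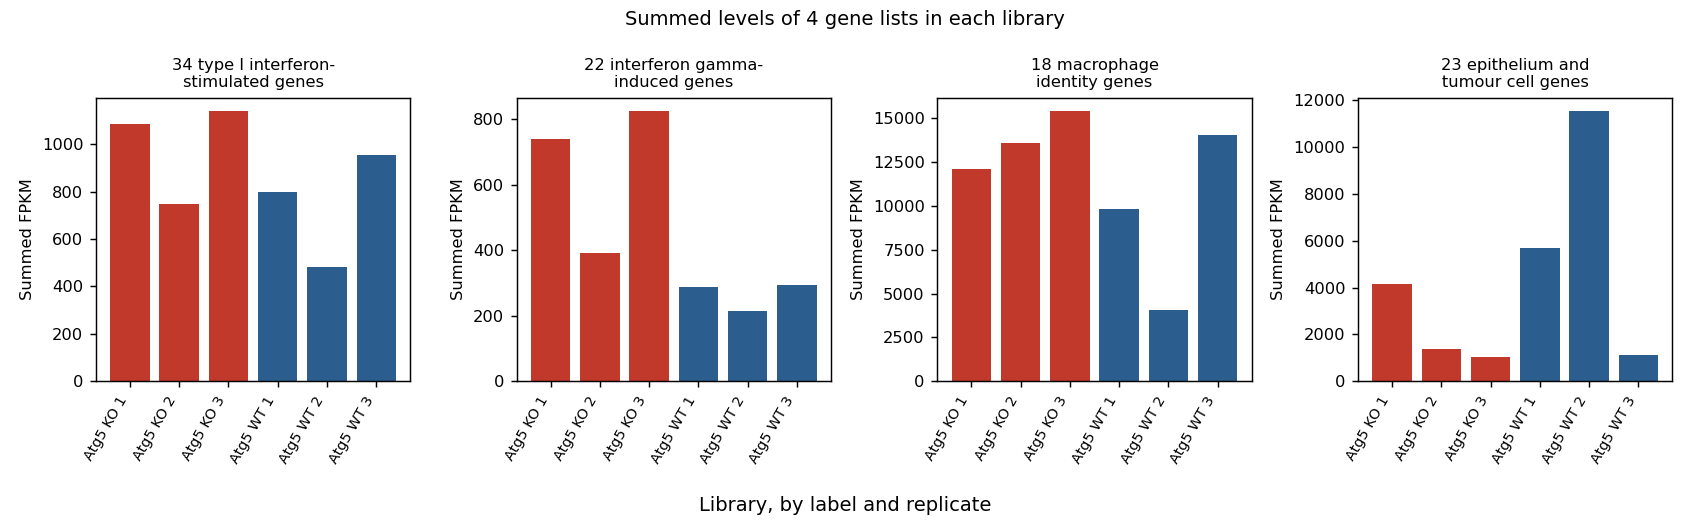
Summed FPKM of 4 gene lists in each library, red bars for those labelled Atg5 KO and blue for those labelled Atg5 WT, each axis starting at 0. The sums of the 34 interferon-stimulated genes (1084, 749 and 1138 against 800, 483 and 955) overlap between groups, those of the interferon gamma-induced genes (741, 391 and 824 against 288, 214 and 293) do not, and replicate 2 labelled Atg5 WT has the lowest macrophage and the highest epithelial sum.

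Marker levels of macrophages and epithelium also differed between the libraries, and the members were fitted with each as a covariate. With the mean log2 level of the macrophage markers as a covariate, 19 of 34 members had a positive difference and the median was 0.10. With that of the epithelial markers 24 did and the median was 0.20. The median of all genes tested was 0.03 in each of these fits, against -0.09 without a covariate. The members' median thus exceeded it by 0.07 with the macrophage and 0.17 with the epithelial covariate, against 0.37 without. The part of either marker level in the result beyond these values was not tested. Replicate 2 labelled Atg5 KO, the low library of its group for the members, had a macrophage marker sum of 13585. Replicates 1 and 3 of that group had 12108 and 15385. A link of these sums to the members' levels was not tested. Ly6c2, which encodes the monocyte antigen Ly6C that the sort left out, followed the members' pattern with 5.71, 0.702 and 5.29 FPKM in the libraries labelled Atg5 KO against 0.861, 0.483 and 0.875 FPKM in those labelled Atg5 WT. Of all 10 monocyte markers, Ly6c2 included, 5 had a higher and 5 a lower mean, with a median difference of 0.05. Their summed FPKM ran otherwise than Ly6c2 (369, 631 and 432 against 481, 408 and 665), and their part in the result was not tested. The members' median was 0.53 without replicate 2 labelled Atg5 KO and 0.15 without replicate 1 or 3 of that group. It was 0.15 without replicate 2 and 0.42 without replicate 3 labelled Atg5 WT.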

How the data were processed

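RNA of sorted tumour-associated macrophages was sequenced in 6 libraries, 3 labelled Atg5 KO and 3 labelled Atg5 WT. The authors deposited FPKM values per gene, per the file headers. The submitters' processing notes name STAR, CASAVA and the build mm10 with no version or role. How reads were counted, with which strand setting, annotation and filters, no source used here states. FPKM times gene length gave whole multiples of 1 read (tolerance 0.01) for 100.0% of values, which gave the recovered reads, so 1 read on a gene of 1 kb stood at 0.0472 to 0.0533 FPKM.

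A pseudocount of 1 FPKM was added before taking log2. The 12332 genes that averaged 1 FPKM or more were fitted with the group as the only term in limma 3.58.1 (R 4.3.3) with the mean-variance trend, two-sided, with Benjamini-Hochberg adjustment over all genes and a threshold of 0.05. Fold changes on this scale understate the change of low genes. The script was tested on simulated data with changes larger than the members' differences. Its ability to find changes of the members' size was not checked. The members and the lists were chosen with earlier results of these data known, so no list was tested as a set. Named were the members of smallest p per role, those without overlap, and up to 3 genes of smallest p per pathway list beside fixed pathway genes. 1 pathway gene is not reported here. Of 228 entries in 15 other lists, 220 matched by symbol, 4 by older symbol, 2 duplicated an entry and 2 did not match. Alternatives were pseudocounts of 0.1 and 0.5, no filter, a filter at 5 FPKM, median-ratio scaling, quantile normalization, limma-voom, robust empirical Bayes, a replicate block, marker scores as covariates and leaving out each library. Each library is labelled with its own mouse, and p-values measure the spread between these libraries.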

Additional observations from a re-analysis of the deposited data

How the results depend on the processing

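No member passed the test under any of the 17 alternatives, and the smallest adjusted p of a member was 0.116. The members' median stayed positive in all of them. It ran from 0.149 to 0.53 when 1 library was left out, and was 0.46 under quantile normalization and 0.10 with the macrophage score as a covariate, an alternative chosen after seeing the data. Quantile normalization moved the median of all genes from -0.09 to 0.03, and the members' median then exceeded it by 0.43. With the macrophage score the median of all genes was 0.03 as well, and the members' median exceeded it by 0.07. The number of genes called over all genes was 0 with no filter, with median-ratio scaling and with the replicate block, and 0 to 18 when 1 library was left out (18 without replicate 2 labelled Atg5 WT). The labels do not say whether the replicate numbers pair the samples. Deviations from the group means correlated at 0.21, -0.38 and 0.59 for the same numbers, and at -0.81 to 0.73 for different numbers. With 3 libraries per group these correlations cannot show whether mice were paired. With the replicate block the members' median was 0.28 and 0 members passed. Members higher at an unadjusted limma-trend p under 0.05 were 3 in the main fit. They were 8 with the replicate block, 11 without replicate 2 labelled Atg5 KO and 0 with either marker score. They were also 0 without replicate 1 or 3 labelled Atg5 KO or replicate 2 labelled Atg5 WT. Shares of all genes under that unadjusted p were not computed for these alternatives.

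The log2 difference kept 1 sign in each alternative that gave a value for 17 of 34 members (the filter at 5 FPKM left 27), among them Zbp1, Oas2, Oasl2, Oas1a, Trim30a, Herc6, Parp14, Dtx3l and Rsad2. It changed sign under quantile normalization for Ifit1 0.11, Mx2 0.13, Cmpk2 0.027 and Usp18 0.084, under a pseudocount of 0.1 for I830012O16Rik -0.031 and under limma-voom for I830012O16Rik -0.042. With the tumour-cell score it changed sign for Ddx58 0.23, Ddx60 -0.044, Ifit1 0.0022, Ifit2 -0.067, Ifit3 -0.0059, Oasl1 -0.085, Mx2 0.062 and Slfn5 -0.13. With the macrophage score it did so for Ddx58 0.19, Ddx60 -0.13, Ifi204 -0.0084, Ifit2 -0.22, Ifit3 -0.24, Oasl1 -0.30, Mx1 -0.10, Slfn5 -0.19, Ifi27l2a -0.082 and I830012O16Rik -0.056. Among genes whose sign changed when 1 library was left out, the differences ran over these ranges: Ddx58 -0.36 to 0.078, Ddx60 -0.038 to 0.33, Ifit1 -0.38 to 0.24, Ifit2 -0.079 to 0.51, Ifit3 -0.11 to 0.56, Oasl1 -0.10 to 0.71, Mx2 -0.30 to 0.19, Cmpk2 -0.43 to 0.14, Eif2ak2 -0.061 to 0.24, Rtp4 -0.11 to 0.55, Isg15 -0.37 to 0.11, Usp18 -0.36 to 0.14, Slfn5 -0.12 to 0.12, Ifi44 -0.31 to 0.54 and I830012O16Rik -0.28 to 0.38. The cause was not tested. The 95% interval of the difference included 0 for 31 of 34 members and lay above 0 for 3.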
